A study of Mus musculus with 9 samples.

Results

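Complex I of the respiratory chain was followed through the 37 nuclear genes whose symbols have the form Nduf followed by a, ab, b, c, s or v and a number, and which held at least 10 counts summed over 9 libraries of mouse muscle. These are 37 of the 55536 genes in the deposited tables, and their totals ran from 14671 to 143639 counts, so that the minimum removed none of them. The libraries came from male ICR mice, an outbred strain, in 3 groups of 3. Young vehicle libraries (replicates 2, 3 and 4) came from animals of 2 months, and aged vehicle libraries (replicates 1, 3 and 4) from animals of 18 months. Aged GW8510 libraries (replicates 1, 3 and 4) came from animals of 18 months that received the benzenesulfonamide GW8510 by intraperitoneal injection at 2 mg/kg each day for 14 days, dissolved in sodium carboxymethylcellulose. The labels name neither the muscle nor the content of the vehicle, and they do not state that each library was a separate animal, so the p-values below measure only the spread between these libraries.

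Complex I, or NADH:ubiquinone oxidoreductase, is the entry point for electrons from NADH into the respiratory chain of the inner mitochondrial membrane. Its N module oxidises NADH and passes the electrons along iron-sulphur clusters to the Q module, which reduces ubiquinone, while the membrane arm, built in a proximal and a distal part, pumps protons. The core of the membrane arm is encoded by mitochondrial DNA, and the core of the N and Q modules, together with all accessory subunits, by the nucleus. In skeletal muscle the complex is abundant in oxidative fibres and feeds ATP synthesis during sustained work. The 37 genes comprised 7 core subunits and 30 counted as accessory, Ndufa4 among them. Of the 37, 10 were assigned to the N module, 5 to the Q module, 10 to the proximal and 10 to the distal membrane arm. The other 2 were Ndufab1, the mitochondrial acyl carrier protein, which sits in both arms, and Ndufa4, which carries a complex I symbol but is known as a subunit of cytochrome c oxidase. They lay on 15 chromosomes, with 2 of them (Ndufa1 and Ndufb11) on the X chromosome, and all were annotated as protein coding.

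The sequence at the starts of these genes was read from promoter windows. RefSeq windows of 250 bases before to 50 bases after the start site (build GRCm38.p6) were at hand for 33 of the 37 genes. The median GC content of the 33 was 59.0%, against 52.7% over all 32851 windows. Those of 5 are printed, Ndufb3, Ndufa6, Ndufs4, Ndufa9 and Ndufs7, as examples of genes whose values are described below: Ndufb3 and Ndufa6 were the most positive with age and Ndufs4 the most negative, Ndufa9 was among the 3 most positive with GW8510, and Ndufs7 had the largest difference between aged GW8510 and young libraries among core subunits. They follow no single rule, and they and the letters searched were chosen after values and matches had been seen. Each sequence runs 5′ to 3′ on the gene's strand, and capitals mark a match to 1 of 5 motifs.
Ndufb3: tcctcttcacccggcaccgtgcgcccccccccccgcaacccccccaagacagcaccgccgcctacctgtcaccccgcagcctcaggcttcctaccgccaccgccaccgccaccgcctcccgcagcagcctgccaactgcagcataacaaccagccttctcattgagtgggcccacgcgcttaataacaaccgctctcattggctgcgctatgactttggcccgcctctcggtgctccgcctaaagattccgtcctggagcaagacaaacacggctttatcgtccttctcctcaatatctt
Ndufa6: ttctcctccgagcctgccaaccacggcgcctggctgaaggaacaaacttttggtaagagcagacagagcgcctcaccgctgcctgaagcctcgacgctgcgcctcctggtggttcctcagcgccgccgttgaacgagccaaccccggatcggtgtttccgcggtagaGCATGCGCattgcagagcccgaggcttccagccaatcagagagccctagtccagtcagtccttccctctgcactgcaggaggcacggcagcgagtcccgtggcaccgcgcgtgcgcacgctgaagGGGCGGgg
Ndufs4: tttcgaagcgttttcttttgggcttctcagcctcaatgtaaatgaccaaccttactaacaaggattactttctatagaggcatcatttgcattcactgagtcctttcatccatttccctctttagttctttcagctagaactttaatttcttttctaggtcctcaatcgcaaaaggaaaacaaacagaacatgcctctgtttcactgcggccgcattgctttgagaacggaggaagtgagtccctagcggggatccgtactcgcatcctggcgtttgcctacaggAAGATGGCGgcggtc
Ndufa9: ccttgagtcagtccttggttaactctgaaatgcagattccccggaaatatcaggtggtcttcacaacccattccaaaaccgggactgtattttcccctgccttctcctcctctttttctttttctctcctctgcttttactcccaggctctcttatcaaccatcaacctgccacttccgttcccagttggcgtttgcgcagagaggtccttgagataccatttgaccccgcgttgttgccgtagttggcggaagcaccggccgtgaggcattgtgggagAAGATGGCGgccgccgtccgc
Ndufs7: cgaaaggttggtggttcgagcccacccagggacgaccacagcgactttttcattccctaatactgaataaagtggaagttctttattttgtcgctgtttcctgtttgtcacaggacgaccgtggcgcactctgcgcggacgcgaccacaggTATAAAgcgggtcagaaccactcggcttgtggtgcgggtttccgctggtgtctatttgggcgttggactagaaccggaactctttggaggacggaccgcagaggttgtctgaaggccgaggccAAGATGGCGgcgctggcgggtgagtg
The Ndufb3 window lies at chr1:58586147-58586446, plus strand, the Ndufa6 window at chr15:82354242-82354541, minus strand, and the Ndufs4 window at chr13:114388045-114388344, minus strand. The Ndufa9 window lies at chr6:126849095-126849394, minus strand, and the Ndufs7 window at chr10:80249199-80249498, plus strand.

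Matches were read on both strands. The NRF1-type letters GCATGCGC, from the binding motif of a regulator of respiratory genes, were in 3 of 33 windows (9.09%, against 2.71% of all windows), in Ndufa6, Ndufa8 and Ndufa11. The YY1-type letters AAGATGGCG were in 5 (15.2%, against 1.4%), in Ndufa9, Ndufc1, Ndufs4, Ndufs6 and Ndufs7, and in all 5 the ATG within them is the annotated start codon, so the letters also spell the start of the protein. The ETS-type letters CCGGAAG were in 4 (12.1%, against 8.86%), the GC box GGGCGG in 15 (45.5%, against 35.7%) and the TATA letters TATAAA in 4 (12.1%, against 13.6%). In the printed windows, Ndufb3 held none of the 5 motifs, Ndufa6 the NRF1-type letters and a GC box, Ndufs4 and Ndufa9 the YY1-type letters, and Ndufs7 the YY1-type and TATA letters. These 5 motifs were taken from 16 letter strings that were searched, several of which overlap each other. Of the others, CATGCGC was in 5 windows (15.2%, against 3.91%), ATGGCGG in 8 (24.2%, against 4.05%), TGACGTCA in 3 (9.09%, against 1.79%), ACCGGAAG in 3 (9.09%, against 2.3%), AAGGTCA in 3 (9.09%, against 4.72%) and CGCATGCG in 2 (6.06%, against 1.87%). CCAAT was in 10 (30.3%, against 37.4%), the NRF1 palindrome and CCGGAAGT were in 1 each (3.03%, against 0.971% and 3.89%), a longer YY1 form was in none (against 0.213%), and GCGCATGC is GCATGCGC read on the other strand. A match describes letters in a window and was not tested for binding of a factor.

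The libraries held between 21718965 and 27437970 counts. The complex I genes took between 0.644% of counts (aged vehicle 4) and 1.03% (aged GW8510 3), and transcripts of the mitochondrial genome between 10.3% and 18.6%. Defining markers of skeletal muscle fibres were present at high levels in all 9 libraries, Acta1 between 22167 and 44495 CPM (counts scaled to library size) and Ckm between 20215 and 30994 CPM, and the 4 cardiac markers were low, at a sum of 0.546 to 7.39 CPM. Of these, Myl7 had 0 counts in all 9 libraries, Nppa and Tnni3 in 2 each and Myh6 in none, and the sum was 2.05 ± 0.706 CPM in young vehicle, 2.20 ± 1.45 CPM in aged vehicle and 5.11 ± 2.41 CPM in aged GW8510 libraries (SD, n = 3 each). Aged vehicle 4 stood apart from the rest on the second principal component of the most variable genes (15.6% of the variance), at 41.2 against a range of -18.2 to 12.7. On the first component (42.9%) it was also the highest, at 45.8 against -41.7 to 25.6 in the others. Its summed fibroblast markers were 70.7 CPM against 213 to 521 CPM in the other aged libraries and 1156 to 2550 CPM in the young ones. The edgeR medians of the complex I genes and of the respiratory and ribosomal lists that rest on this library are also given without it. Those of the endothelial markers and of other settings are given only with it. In bulk muscle, fewer cells or fibres of a type and less RNA per cell cannot be told apart.

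Levels between genes were compared in TPM, transcript abundances scaled for gene length. Ndufa4 had the highest mean level at 1434 TPM and ranked first of the 37 in all 9 libraries, and Ndufb4, an accessory subunit of the distal arm, had the lowest at 97.1 TPM and ranked last in all 9, a ratio of 14.8. The median over the genes was 420.5 TPM. Behind Ndufa4 came Ndufb8 of the distal arm (965 TPM), Ndufb9 (945 TPM) and Ndufa12 of the N module (883 TPM), which exchanged places between ranks 2 and 5 from library to library and so had no fixed order. Among the core subunits reported the order ran from Ndufs7 (534 TPM), which lies at the ubiquinone site, through Ndufv2 (431 TPM), Ndufs3 (397 TPM), Ndufs8 (249 TPM) and Ndufv1 (226 TPM) to Ndufs1 (182 TPM). Ndufs1, the subunit that holds several of the iron-sulphur clusters, ranked 35 or 36 in each library. Ndufa4 is known as a subunit of cytochrome c oxidase, and Ndufb4 was counted without an identical copy described below. Apart from Ndufa4 and Ndufb4, the means ran from 965 TPM (Ndufb8) to 182 TPM (Ndufs1). Subunits of one assembled enzyme thus differed several-fold in transcript level per length.

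**Figure D1:**
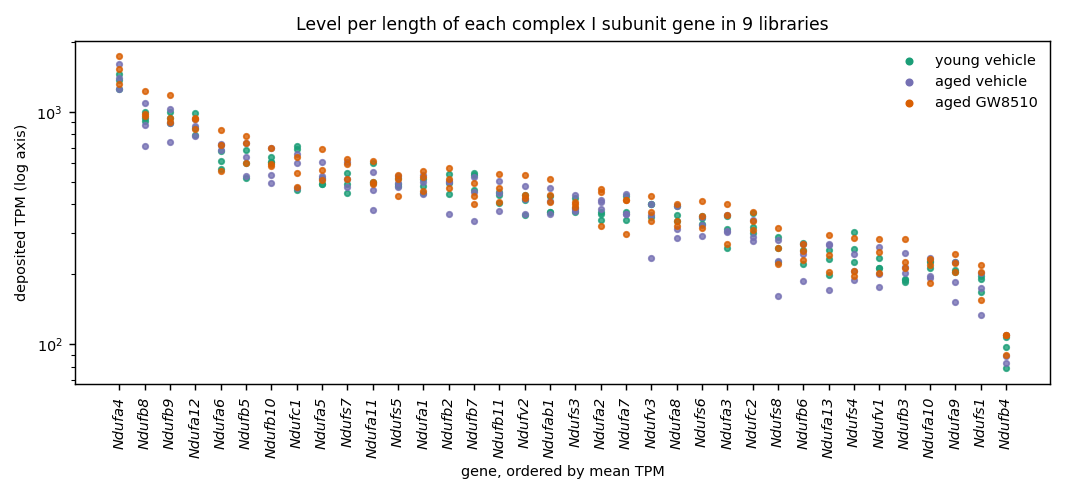
Level of 36 of the 37 genes in TPM (log axis), ordered by the mean, with 1 point per library coloured by group. Ndufa4 is first and Ndufb4 last in all 9 libraries, and the points of the 3 groups intermingle for nearly every gene.

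Within a library the genes moved together. The set level, the mean over the 37 genes of log2 CPM after each gene was centred on its mean over the 9 libraries, was -0.37, -0.0024 and 0.01 in the young vehicle libraries. It was -0.06, 0.25 and -0.40 in the aged vehicle libraries, and 0.20, 0.45 and -0.08 in the aged GW8510 libraries. Young vehicle 2 and aged vehicle 4 were low, aged vehicle 3 and aged GW8510 1 and 3 were high, and the ranges of all 3 groups overlapped. Summed over the genes, the level was 7383 ± 954 CPM in young vehicle, 7697 ± 1719 CPM in aged vehicle and 9182 ± 1588 CPM in aged GW8510 libraries (SD, n = 3 each), and the highest library was 1.80 times the lowest. The lowest level of a gene fell in young vehicle 2 for 18 genes and in aged vehicle 4 for the other 19, and the highest in aged GW8510 3 for 35 genes and in aged GW8510 1 for 2.

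Pearson's correlation of a gene with the mean of the others, over the 9 libraries, had a median of 0.950 and was above 0.9 for 24 genes. The points share their library and its depth, so this is a description of the libraries. Ndufb11 of the distal arm followed the rest most closely (0.993), and Ndufs1 (0.598), Ndufa7 (0.67) and Ndufs4 (0.68) followed it least. With the group means removed the median was 0.947, so the genes also moved together among replicates of a group. The mean centred level of the nuclear subunits of complexes II to V had a like pattern. It was low in aged vehicle 4 (-0.43) and young vehicle 2 (-0.36) and highest in aged GW8510 3 (0.44), so the pattern was not limited to complex I. The SD of log2 CPM within a group had a median of 0.29 over the genes and 0.31 over all 14384 genes tested.

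**Figure D2:**
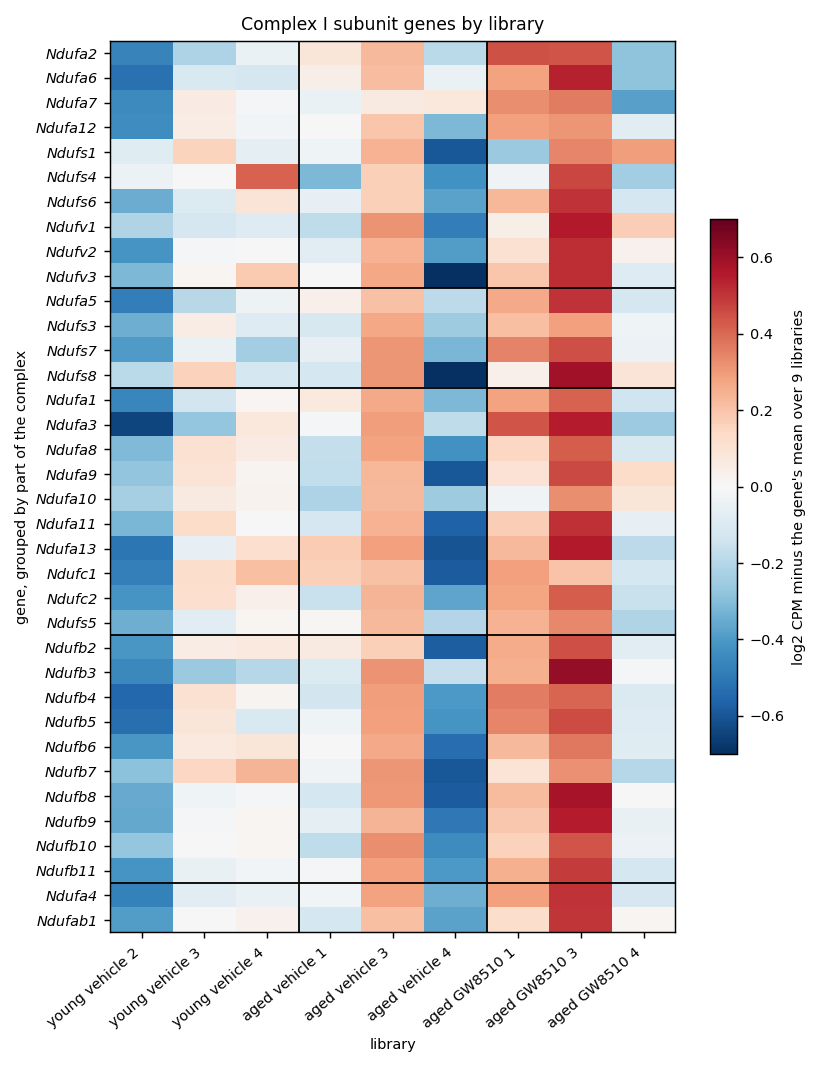
Centred log2 CPM of 36 of the 37 genes (rows, by module) in each of the 9 libraries (columns, by group), on a colour scale around each gene's mean over the libraries. Whole columns share a colour: young vehicle 2 and aged vehicle 4 are low and aged GW8510 3 is high for nearly all genes.

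Markers of fibre type and of other cells were read in the same libraries. The 7 markers of slow, oxidative fibres had a mean centred level of -0.72, -0.98 and 0.35 in young vehicle, 0.18, 1.11 and -1.52 in aged vehicle, and -0.14, 2.13 and -0.41 in aged GW8510 libraries. For the 8 fast fibre markers this level was lowest in aged vehicle 4 (-0.64), next lowest in aged GW8510 3 (-0.32) and highest in young vehicle 4 (0.50). The library highest in the complex I genes, aged GW8510 3, was thus highest in slow markers but next to lowest in fast ones. The library lowest in the complex I genes, aged vehicle 4, was lowest in both. The 4 endothelial markers were likewise lowest in aged vehicle 4 and highest in aged GW8510 3, which lay level with young vehicle 2, with levels of 0.45, 0.24 and 0.15 in young vehicle, -0.35, -0.10 and -0.65 in aged vehicle, and -0.35, 0.45 and 0.17 in aged GW8510 libraries. All 4 had a fold change above 0 over aged vehicle (median 0.45) and all 4 one below 0 with age (median -0.66). In both comparisons 0 were called by edgeR, where 0% of all genes were called over aged vehicle and 1.22% with age. With age, aged libraries were all below young ones for all 4, where 13.5% of all genes had this. At an unadjusted p under 0.05 edgeR had 2 of the 4 with age, where 19.2% of all genes passed, and 0 over aged vehicle, where 4.5% did. Each was above 0 counts in every library. The 5 erythroid markers summed to 607 CPM in aged GW8510 3 and 455 CPM in aged vehicle 1, and to between 3.18 and 110.4 CPM in the other libraries, with Alas2 at 0 counts in 1 library. The summed level of the slow markers ran from 48.4 CPM in aged vehicle 4 to 280.3 CPM in aged GW8510 3, all 7 were above 0 counts in every library, and the 8 fast fibre markers summed to between 82756 and 154801 CPM. Aged GW8510 4 had the highest summed adipocyte markers (46.0 CPM, against 0.886 CPM in the lowest library). The part of fibre type and of these other cells in the complex I levels was not tested.

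The comparison of aged with young vehicle libraries asks how the genes differ with age. No member passed the test: edgeR's quasi-likelihood test called 0 of the 37 at an adjusted p under 0.05, where 1.22% of all genes tested were called, and 0 at an unadjusted p under 0.05, where 19.2% of all genes passed. DESeq2, which called 6.78% of all genes, limma-voom and limma on log2(TPM + 1) also had 0 of the 37 at either level. The fold change, on the log2 scale and aged over young, was above 0 for 25 genes, where 51.1% of all genes were, and below 0 for 12, with a median of 0.04 (all genes 0.01) and a range of -0.31 to 0.33. The median SE was 0.22, 30 of the 37 differences were smaller than their own SE, and no adjusted p lay under 0.372.

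In the N module, Ndufv1, which carries the flavin and the NADH site, stood at 256, 273 and 278 CPM in the young vehicle libraries, 262, 368 and 212 CPM in the aged vehicle libraries and 305, 435 and 334 CPM in the aged GW8510 libraries (replicates in the order given above, here and below). Its age fold change was 0.06 (SE 0.22). Ndufv2, an iron-sulphur subunit beside it, stood at 273, 359.8 and 362 CPM in the young vehicle libraries, 345, 429 and 277 CPM in the aged vehicle libraries and 392, 519.5 and 370.5 CPM in the aged GW8510 libraries, with an age fold change of 0.08 (SE 0.21). Ndufs1 stood at 351, 415 and 354 CPM in the young vehicle libraries, 365, 441 and 247 CPM in the aged vehicle libraries and 311, 472 and 456 CPM in the aged GW8510 libraries, with -0.09 (SE 0.24). For all 3 of these core subunits, aged vehicle 3 was the highest of the 6 vehicle libraries, and the young range lay within or overlapped the aged range.

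Accessory N module genes spread further. Ndufs4, a small subunit whose loss in humans is known to cause Leigh syndrome, had the most negative fold change with age, -0.31 (SE 0.23), at an adjusted p of 0.485. It stood at 118, 121 and 161 CPM in the young vehicle libraries, 97.0, 135 and 89.9 CPM in the aged vehicle libraries and 119, 167 and 102 CPM in the aged GW8510 libraries. Young vehicle 4 held the highest vehicle level and aged vehicle 4 the lowest, and aged vehicle 3 lay inside the young range. Ndufa6, an LYR-motif protein, stood at 148, 197 and 196 CPM in the young vehicle libraries, 218, 247 and 206 CPM in the aged vehicle libraries and 258, 309 and 175 CPM in the aged GW8510 libraries, with 0.31 (SE 0.22) and an adjusted p of 0.456. Every aged vehicle library was above every young one for Ndufa6. Ndufa7 stood at 71.5, 101 and 96.6 CPM in the young vehicle libraries, 94.2, 102 and 102 CPM in the aged vehicle libraries and 122, 125 and 74.8 CPM in the aged GW8510 libraries, with 0.15 (SE 0.21) and overlapping groups.

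In the Q module, Ndufs7, which holds the cluster that hands electrons to ubiquinone, stood at 194, 248 and 216 CPM in the young vehicle libraries, 247, 317 and 206 CPM in the aged vehicle libraries and 326, 351 and 249 CPM in the aged GW8510 libraries, with an age fold change of 0.22 (SE 0.20), the most positive of the 7 core subunits. Ndufs3 stood at 232, 305 and 277 CPM in the young vehicle libraries, 272, 355 and 248 CPM in the aged vehicle libraries and 340.4, 359 and 288 CPM in the aged GW8510 libraries, with 0.10 (SE 0.19). The aged and young vehicle ranges overlapped for both genes. Ndufs8, which carries a pair of iron-sulphur clusters, stood at 114, 144 and 119 CPM in the young vehicle libraries, 119, 160.3 and 77.1 CPM in the aged vehicle libraries and 132, 194 and 138 CPM in the aged GW8510 libraries, with -0.08 (SE 0.26). Ndufa9, an accessory subunit related to short-chain dehydrogenases and listed with the proximal arm, which it joins to the Q module, stood at 195, 252 and 239.7 CPM in the young vehicle libraries, 210.1, 278 and 157 CPM in the aged vehicle libraries and 254, 325 and 259 CPM in the aged GW8510 libraries, with -0.09 (SE 0.22). For Ndufs8 and Ndufa9, aged vehicle 3 was above and aged vehicle 4 below all young libraries.

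In the membrane arm, Ndufb3 of the distal part (gene at chr1:58586384-58595964, GRCm38) had the most positive fold change with age, 0.33 (SE 0.20), at an adjusted p of 0.372. It stood at 76.3, 87.0 and 90.9 CPM in the young vehicle libraries, 97.5, 129.7 and 93.4 CPM in the aged vehicle libraries and 124, 159.7 and 104 CPM in the aged GW8510 libraries, and every aged vehicle library was above every young one. Ndufb3 and Ndufa6 were the 2 of 37 genes with aged libraries all higher, where 12.7% of all genes tested had this, and 0 had them all lower, where 13.5% did. Ndufb7 stood at 132, 178 and 190.3 CPM in the young vehicle libraries, 158, 199 and 107 CPM in the aged vehicle libraries and 172, 201 and 140.4 CPM in the aged GW8510 libraries, with -0.11 (SE 0.25), next to Ndufs4 among the most negative. Ndufb8 stood at 303, 379 and 384 CPM in the young vehicle libraries, 356, 478 and 259 CPM in the aged vehicle libraries and 452, 578 and 388 CPM in the aged GW8510 libraries, with 0.04 (SE 0.24). The vehicle groups overlapped for Ndufb7 and Ndufb8, with aged vehicle 4 the lowest library for both. In the proximal arm, Ndufa3 stood at 44.5, 57.6 and 73.3 CPM in the young vehicle libraries, 69.2, 85.3 and 61.5 CPM in the aged vehicle libraries and 94.2, 102 and 58.2 CPM in the aged GW8510 libraries, with 0.30 (SE 0.25). Ndufs5, a small subunit of the intermembrane space side, stood at 98.6, 119 and 127 CPM in the young vehicle libraries, 126, 146 and 108 CPM in the aged vehicle libraries and 148, 158 and 108 CPM in the aged GW8510 libraries, with 0.15 (SE 0.19). The aged and young ranges overlapped for both proximal genes, with young vehicle 2 lowest. Ndufa4 stood at 344, 454 and 462 CPM in the young vehicle libraries, 472, 582 and 377 CPM in the aged vehicle libraries and 584, 678 and 441 CPM in the aged GW8510 libraries, with 0.18 (SE 0.22) and overlapping vehicle groups.

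The direction of the median with age turned on single libraries. Without aged vehicle 4 the median was 0.20 with 36 of 37 genes above 0, without aged vehicle 3 it was -0.14 with 10 above 0, and without young vehicle 2 it was -0.07 with 12 above 0. No direction with age can be given for the genes as a set.

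The comparison of aged GW8510 with aged vehicle libraries asks whether treatment shifts the genes in old muscle. All 37 fold changes were above 0, where 50.9% of all genes tested were, with a median of 0.25 on the log2 scale (all genes 0.01) and a range of 0.11 to 0.38. No member passed the test: edgeR called 0 of 37 at an adjusted p under 0.05, where 0% of all genes were called, and 0 at an unadjusted p under 0.05, where 4.5% were. DESeq2, which called 0.0696% of all genes, limma-voom and limma on log2(TPM + 1) had 0 of the 37 at either level too, and the smallest adjusted p by edgeR was 0.934. The GW8510 and vehicle libraries overlapped for each of the 37 genes, where 3.89% of all genes had GW8510 libraries all higher and 3.33% all lower. Because the genes move together from library to library, the 37 signs are not independent of each other.

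The most positive fold changes over aged vehicle were those of Ndufs8, 0.38 (SE 0.26), Ndufa9, 0.38 (SE 0.22), and Ndufb8, 0.38 (SE 0.24). Aged vehicle 4 was the lowest of the 9 libraries for all 3 genes and aged GW8510 3 the highest. Among other core subunits the values were 0.35 (SE 0.22) for Ndufv1, 0.29 (SE 0.21) for Ndufv2, 0.23 (SE 0.24) for Ndufs1, 0.27 (SE 0.20) for Ndufs7 and 0.17 (SE 0.19) for Ndufs3. The least positive were Ndufa7, 0.11 (SE 0.21), Ndufs5, 0.12 (SE 0.19), and Ndufa6, 0.15 (SE 0.22), with Ndufb7, 0.15 (SE 0.25), next to them. By module the medians were 0.25 for the N module, 0.21 for the Q module, 0.23 for the proximal arm and 0.28 for the distal arm. Without aged vehicle 4 they were 0.11, 0.11, 0.11 and 0.11 in that order, and differences between modules were not tested. Ndufa4 had 0.25 (SE 0.22), at the median of the set.

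**Figure D3:**
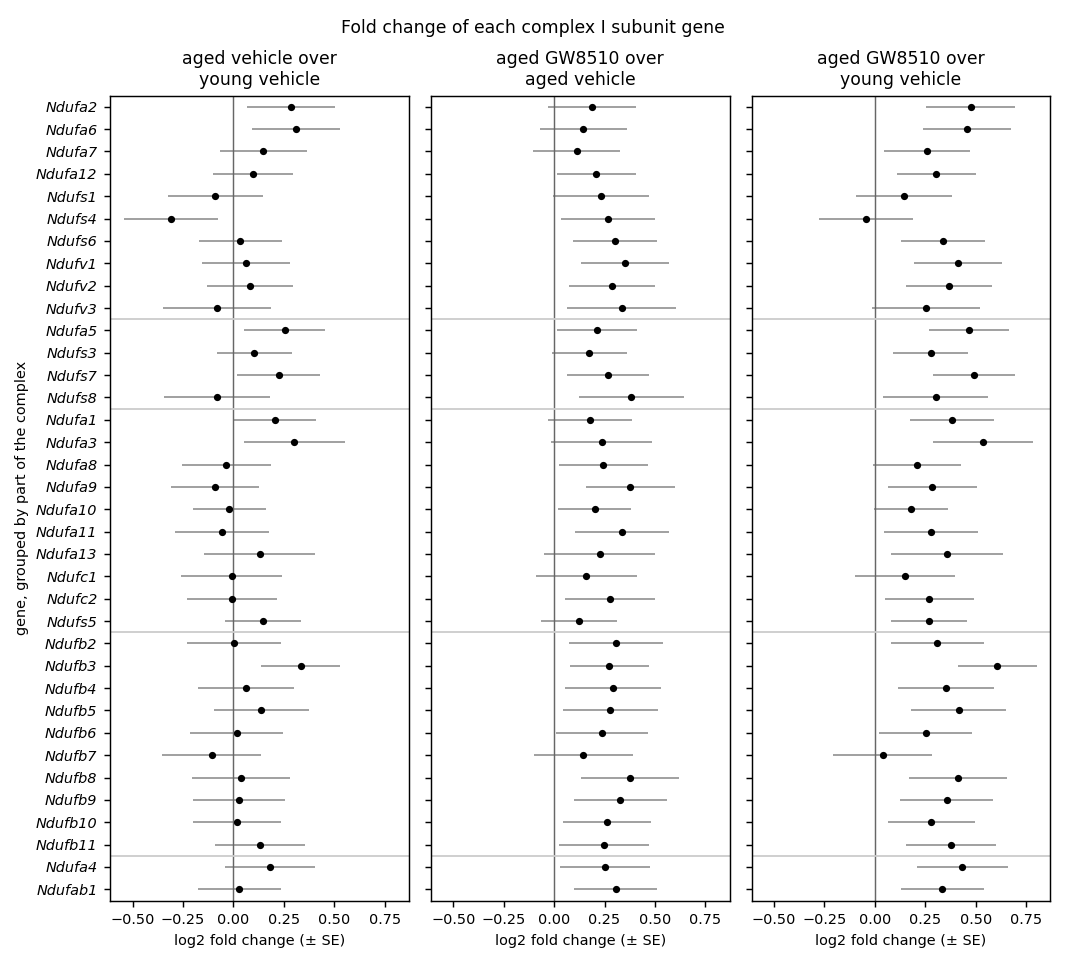
Log2 fold change of 36 of the 37 genes, by module, with bars of 1 SE, in the 3 comparisons. All points of GW8510 over aged vehicle lie right of 0, at 0.11 to 0.38, with bars of about the same length as the distances, while those of aged over young vehicle lie on both sides.

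The size of this shift depended on the libraries kept. Without aged vehicle 4 the median was 0.11 with 34 of 37 genes above 0, and without aged GW8510 3 it was 0.12 with 35 above 0. Without aged vehicle 3 it was 0.44 and without aged GW8510 4 it was 0.38, with all 37 above 0 in both. On the log2(TPM + 1) scale the median was 0.11 with 33 genes above 0. That scale moved the median of all genes to -0.10 in this comparison, to -0.04 with age and to -0.14 for aged GW8510 over young vehicle. In this comparison the complex I median thus lay on the other side of 0 from the median of all genes.

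Aged GW8510 libraries were also set against young vehicle ones, which shares libraries with both comparisons above. Fold changes were above 0 for 36 of 37 genes, where 51.3% of all genes were, with a median of 0.31 on the log2 scale (all genes 0.01) and a range of -0.04 (Ndufs4) to 0.61 (Ndufb3). edgeR called 0 of 37 at an adjusted p under 0.05, where 0.751% of all genes were called, and no adjusted p lay under 0.163. Ndufb3, Ndufs7 and Ndufa5, 3 of the 37, had an unadjusted p under 0.05, where 16.7% of all genes did. DESeq2, which called 6.06% of all genes, and limma-voom each had 0 past the adjusted threshold and 3 at the unadjusted one, and limma on log2(TPM + 1) had 0 and 1. In the authors' deposited table Ndufb3 has an adjusted p of 0.0315 in this comparison, and no complex I gene is marked as changed.

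GW8510 libraries were all above young ones for 6 of 37 genes, where 12.9% of all genes had this, and all below for 0, where 12.8% did. The 6 were the core subunits Ndufv1, Ndufv2 and Ndufs7 and the accessory subunits Ndufa9, Ndufb3 and Ndufb8. Ndufb3 had 0.61 (SE 0.20), at an unadjusted p of 0.0117 and an adjusted p of 0.163. Ndufs7 had 0.49 (SE 0.20) at an adjusted p of 0.265, and its lowest GW8510 library (249 CPM) was barely above its highest young one (248 CPM). Ndufv1 had 0.41 (SE 0.22) and Ndufb8 0.41 (SE 0.24). Ndufs4 alone was below 0, at -0.04 (SE 0.23), with young vehicle 4 and aged GW8510 3 about level. Without young vehicle 2 the median over the genes was 0.18, without aged GW8510 3 it was 0.18, and on the log2(TPM + 1) scale it was 0.07 with 28 genes above 0.

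After the set level of each library was taken away, the remaining deviation of a gene followed its length in some libraries. Over the 37 genes, which ran from 315 to 3479 bases in the deposited length column, Spearman's rho between length and deviation was 0.58 in aged GW8510 4 and 0.47 in young vehicle 2, and -0.62 in aged GW8510 1 and -0.54 in aged vehicle 1. In aged GW8510 4 and young vehicle 2 the longer genes were relatively high, and in the other pair the shorter ones were. Over all 14384 genes the same quantity, with the gene's centred level, was 0.25, 0.38, -0.40 and -0.04 in that order. Ndufs1, among the longest, stood at 311 CPM in aged GW8510 1 and 456 CPM in aged GW8510 4, while the short Ndufa7 stood at 122 and 74.8 CPM, the opposite order. Both genes were among the 3 that followed the set least. The part of transcript length in these differences between genes was not tested.

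**Figure D4:**
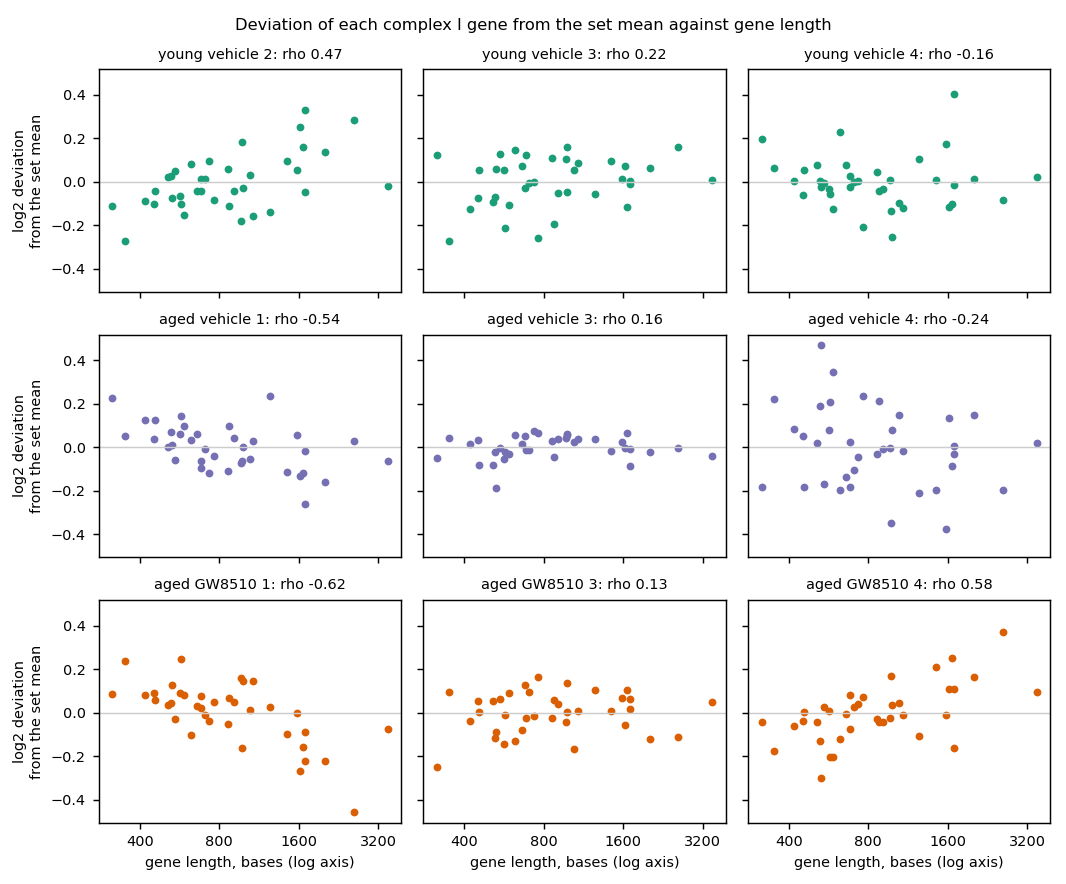
Deviation of each of the 37 genes from the set level of its library (log2 CPM) against gene length in bases (log axis), 1 panel per library. The cloud slopes upward in young vehicle 2 and aged GW8510 4 and downward in aged vehicle 1 and aged GW8510 1.

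Other genes of the respiratory chain were read from lists. The 7 complex I subunits encoded by mitochondrial DNA summed to 56625 ± 3372 CPM in young vehicle, 76296 ± 16152 CPM in aged vehicle and 99212 ± 12807 CPM in aged GW8510 libraries (SD, n = 3 each). All 3 GW8510 libraries were above all 3 young ones in this sum. Their median log2 fold changes were 0.44 with age, 0.38 for GW8510 over aged vehicle and 0.82 for GW8510 over young vehicle, against 0.04, 0.25 and 0.31 for the nuclear genes. None passed the threshold in any comparison by edgeR, where the smallest adjusted p was 0.0675, and 6 of 7 had an unadjusted p under 0.05 in GW8510 over young vehicle, 1 in each of the other comparisons, against 16.7% of all genes there and 19.2% with age and 4.5% over aged vehicle. Without aged vehicle 4 their medians were 0.65 with age and 0.17 over aged vehicle. DESeq2, which called 6.06% of all genes in GW8510 over young vehicle, called 5 of the 7 there (mt-Nd1, mt-Nd2, mt-Nd3, mt-Nd4 and mt-Nd5) and 0 in the others, while limma-voom and limma on log2(TPM + 1) called 0 in all 3. Whether the nuclear and mitochondrial genes differ in their shift was not tested.

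Of 48 nuclear genes listed by their symbols as subunits of complexes II to V, 44 were tested and 0 passed in any comparison by edgeR. Their medians were 0.07, 0.30 and 0.36 in the same order, with 30, 43 and 43 of 44 above 0. The 18 assembly factors tested, proteins that build complex I but are not part of it, had 0 past the threshold and medians of 0.04, 0.12 and 0.12. The 15 regulators of nuclear respiratory genes had 0 past it and medians of 0.16, 0.15 and 0.10. At an unadjusted p under 0.05, edgeR had 1, 1 and 6 of the complex II to V genes, 2, 1 and 5 of the assembly factors and 4, 1 and 5 of the regulators in these comparisons, where 19.2%, 4.5% and 16.7% of all genes passed. Without aged vehicle 4 the medians with age and over aged vehicle were 0.21 and 0.15 for complexes II to V, 0.15 and 0.029 for the assembly factors, and 0.017 and 0.09 for the regulators. The medians of the complex I genes and of the other complexes lay on the same side of 0 in each comparison, and their difference was not tested. The 78 cytosolic ribosomal protein genes tested, a list outside the respiratory chain, had 0 past the threshold by edgeR, medians without aged vehicle 4 of 0.28 with age and 0.18 over aged vehicle, and with it medians of 0.47, 0.0043 and 0.47, with 30, 0 and 28 at an unadjusted p under 0.05, against the same 19.2%, 4.5% and 16.7% of all genes. Past the adjusted threshold, DESeq2 called 6.78% of all genes with age, 0.0696% over aged vehicle and 6.06% over young vehicle. With age it called 6 ribosomal protein genes and Cox7a2l, which entered the list of complexes II to V by its symbol. In GW8510 over young vehicle it called 3 regulators (Esrrb, Esrrg and Ppargc1a) and 4 ribosomal protein genes. It called 0 of these 4 lists elsewhere, and limma-voom and limma on log2(TPM + 1) called 0 of them in all 3 comparisons.

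**Figure D5:**
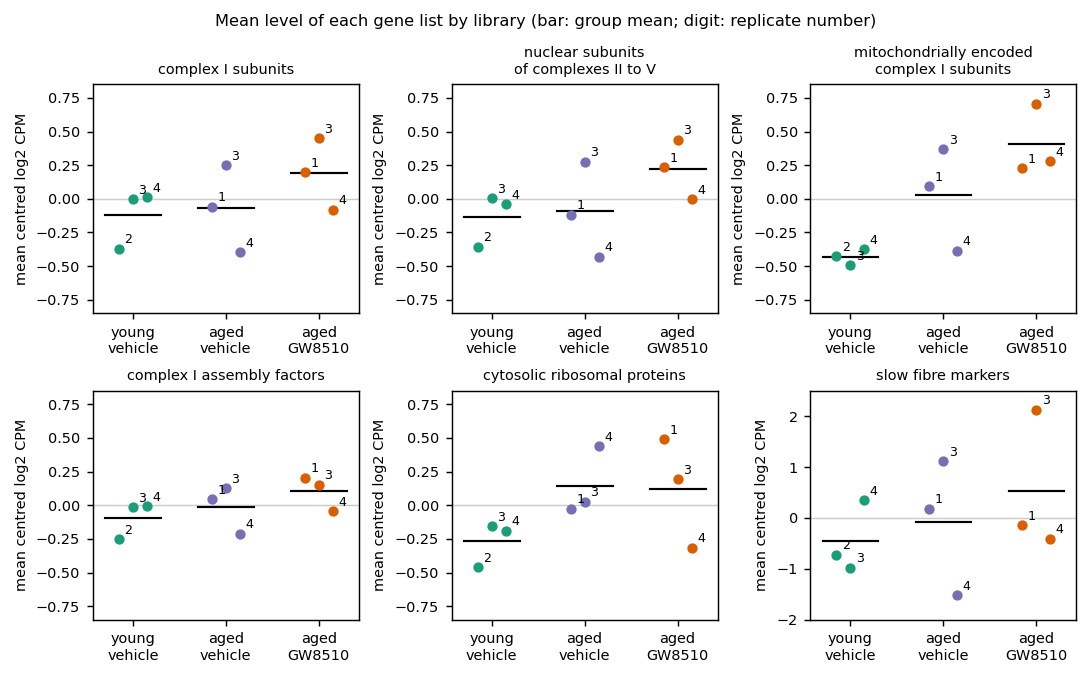
Mean centred log2 CPM of 6 gene lists (the slow fibre panel has its own axis range) in each of the 9 libraries, 1 point per library, with the mean of each group as a line. The complex I genes overlap between all groups, and the mitochondrially encoded subunits are lowest in the 3 young libraries, apart from aged vehicle 4, which lies among them.

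Ndufb4 is an uncertain value. A processed pseudogene, Ndufb4c on chromosome 15 (chr15:73809507-73809896, GRCm38), is identical to the Ndufb4 transcript over all 390 of its bases, and it held 23173 counts against 14671 for Ndufb4, between 1.39 and 1.86 times as many in each library. Ndufb4 stood at 44.9, 70.7 and 66.7 CPM in the young vehicle libraries, 60.2, 80.5 and 49.8 CPM in the aged vehicle libraries and 84.3, 87.3 and 61.2 CPM in the aged GW8510 libraries, with fold changes of 0.06 (SE 0.24) with age, 0.29 (SE 0.24) over aged vehicle and 0.35 (SE 0.24) over young vehicle. Summed with its copy, it had 0.14 (SE 0.20), 0.28 (SE 0.20) and 0.42 (SE 0.21), and again passed the threshold in none, with overlapping groups for Ndufb4 in each comparison. The sum was added after the data had been seen. The lowest rank of Ndufb4 in TPM holds for the gene as counted, without the copy.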

How the data were processed

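Muscle RNA from 9 libraries (3 groups of 3) was analysed from the 3 tables the authors deposited. Their count columns hold expected counts, given per gene as the authors deposited them, with totals that differ between libraries as unscaled counts do. Their TPM columns hold values scaled for gene length and library size, per the file headers. The submitters' processing notes name CASAVA, HISAT2, StringTie, RSEM, DESeq2, edgeR and GRCm38, without roles, and versions are not given in the sources used here. Deposited log2 fold changes and adjusted p-values of the authors' own comparisons were used only where named. Expected counts (91.4% whole, equal between tables) were rounded.

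Genes passing edgeR's filterByExpr (14384) were scaled by TMM and fitted with edgeR 4.0.16 (quasi-likelihood F test, R 4.3.3) over all 9 libraries; p-values were two-sided and Benjamini-Hochberg adjusted over all genes tested, with a threshold of 0.05. The SE of a fold change was derived from its F statistic, by dividing its size on the log2 scale by the root of F. Groups came from the labels. CPM use the same scaling, and the centred log2 CPM a prior count of 2. Depth was 21718965 to 27437970 counts per library. Alternatives were DESeq2 1.42.0, RLE factors, no filter, limma 3.58.1 (voom, and log2(TPM + 1) with pseudocount 1), only the 6 libraries compared, a replicate block, and each library left out. The test was checked on simulated data for GW8510 over aged vehicle (14384 genes, those made to differ having a mean count of at least 1000). In these data 95 of 100 genes made to differ 4-fold were called, and 48 of 100 made to differ 2-fold. Genes were drawn independently of each other and smaller differences were not simulated. The check thus cannot show how often shifts as small as those of the complex I genes would be called. No 2 libraries of a group agreed within sampling noise.

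Members and lists were chosen with earlier results of these data known. Values in every library are given for 6 of the 7 core subunits (1 member is counted in all sets but not reported here), the 3 most positive and 3 most negative genes with age and with treatment, the highest and lowest gene in TPM, and Ndufa4. Gene positions are from GENCODE M21 (GRCm38), to which all 55536 IDs matched, and promoters from RefSeq. Reads of near-identical copies may be split between them by the counting.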

Additional observations from a re-analysis of the deposited data

How the results depend on the processing

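Under 16 alternative settings, of which 9 leave out 1 library each, the count of complex I genes past the threshold was 0 in all 3 comparisons. The median fold change moved, and with age it changed sign. For aged vehicle over young vehicle it ran from -0.14 to 0.20 with 1 library left out. For aged GW8510 over aged vehicle it ran from 0.11 to 0.44 with 1 library left out. For aged GW8510 over young vehicle it ran from 0.18 to 0.42 with 1 library left out. Over all genes tested, replicate numbers did not pair the libraries. Deviations from the group means of same-numbered aged vehicle and aged GW8510 libraries correlated at -0.08, 0.02 and -0.21, and not every library correlated best with its own number. The set level of the complex I genes did run in the same order by number in both aged groups. It was -0.06, 0.25 and -0.40 in aged vehicle 1, 3 and 4, and 0.20, 0.45 and -0.08 in aged GW8510 1, 3 and 4. Each GW8510 library was thus above the aged vehicle library of its number, and whether the numbers pair animals was not tested. With the replicate number as a block the medians were -0.08 with age (10 genes above 0), 0.25 over aged vehicle and 0.19 over young vehicle, and 0 genes passed the threshold in each. Sign changes of single genes were followed only for the 17 genes whose values in every library are given, so the list below leaves out the other members. Some of these 17, none of them called, changed sign under some settings, and the cause was not tested. With limma-voom, aged vehicle over young vehicle, the value was -0.00285 for Ndufb8. On the log2(TPM + 1) scale, aged vehicle over young vehicle, the value was -0.00696 for Ndufb4, -0.11 for Ndufb8 and -0.0651 for Ndufv1. With the replicate block, aged vehicle over young vehicle, the value was -0.0215 for Ndufa7, -0.17 for Ndufb4, -0.11 for Ndufb8, -0.0059 for Ndufs3, -0.00245 for Ndufs5 and -0.0447 for Ndufv2. On the log2(TPM + 1) scale, aged GW8510 over aged vehicle, the value was -0.0333 for Ndufa6, -0.0577 for Ndufa7 and -0.0201 for Ndufs5. On the log2(TPM + 1) scale, aged GW8510 over young vehicle, the value was -0.0275 for Ndufa7, -0.22 for Ndufb7 and -0.00499 for Ndufs5. With the replicate block, aged GW8510 over young vehicle, the value was -0.17 for Ndufb7. With 1 library left out, values of aged vehicle over young vehicle that changed sign ran from -0.32 to 0.0849 for Ndufa9, -0.14 to 0.20 for Ndufb4, -0.33 to 0.0947 for Ndufb7, -0.21 to 0.22 for Ndufb8, -0.29 to 0.10 for Ndufs1, -0.0644 to 0.20 for Ndufs3, -0.36 to 0.14 for Ndufs8, -0.18 to 0.22 for Ndufv1 and -0.0907 to 0.22 for Ndufv2. With 1 library left out, values of aged GW8510 over aged vehicle that changed sign ran from -0.0474 to 0.33 for Ndufa6, -0.0144 to 0.30 for Ndufa7 and -0.064 to 0.37 for Ndufb7. With 1 library left out, values of aged GW8510 over young vehicle that changed sign ran from -0.11 to 0.14 for Ndufb7 and -0.27 to 0.12 for Ndufs4.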

Other observations

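Among the 15 regulators of nuclear respiratory genes, 2 were singled out after their values had been seen. Of the 15, 8 had a fold change above 0 and 7 below 0 over aged vehicle, and 9 and 6 over young vehicle. Ppargc1a, a coactivator of mitochondrial genes, stood at 18.3, 13.9 and 17.8 CPM in young vehicle, 15.5, 23.7 and 19.1 CPM in aged vehicle and 27.7, 24.6 and 77.8 CPM in aged GW8510 libraries. Every GW8510 library was above every vehicle library, at the closest by 24.6 against 23.7 CPM. Of all genes tested, GW8510 libraries were all higher for 3.89% over aged vehicle and for 12.9% over young vehicle. The log2 fold change of Ppargc1a over aged vehicle, 1.16 (SE 0.40), did not pass the test (unadjusted p = 0.0155, adjusted p = 0.934, edgeR). The library highest in Ppargc1a, aged GW8510 4, was the lowest of the GW8510 libraries in the complex I genes, and a relation between them was not tested. Esrrg, an oestrogen-related receptor, stood at 5.64, 7.23 and 5.85 CPM in young vehicle, 7.53, 11.7 and 8.79 CPM in aged vehicle and 9.17, 14.1 and 16.6 CPM in aged GW8510 libraries. GW8510 and young libraries did not overlap, with a log2 fold change of 1.09 (SE 0.25) at an adjusted p of 0.0734 by edgeR. Aged vehicle libraries were also all above young ones for Esrrg, where 12.7% of all genes had this, with 0.58 (SE 0.25). GW8510 and aged vehicle libraries overlapped for Esrrg, with 0.51 (SE 0.25). DESeq2 called both genes in aged GW8510 over young vehicle and neither in the other comparisons.

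Ndufb1-ps, which the annotation lists as a long non-coding RNA and which the naming rule does not match, held 17415 counts, more than Ndufb4, Ndufa3 or Ndufa1 among the members.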
